A study of Mus musculus with 64 samples.

Results

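The genes described here encode the proteins of the cytosolic ribosome. Members were the genes of the expression table whose symbol began with Rpl or Rps followed by a digit, together with Rplp0, Rplp1, Rplp2 and Rpsa. The kinase genes of the Rps6k family and the other symbols that only resemble these names, 5 in all, were left out. The rule found 80 of the 5647 genes in the table, of which 49 belong to the large subunit and 31 to the small subunit. It used symbols only and no measured value.

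Bulk RNA-seq was run on microglia, the resident immune cells of the brain, sorted as live CD11b+ CD45low cells from wild-type C57BL/6J mice. Each of the 64 libraries came from 1 mouse. Females that received LPS (lipopolysaccharide, a bacterial cell wall component given into the peritoneum shortly before collection) were 3, 14 or 24 months old, with 3, 5 and 3 mice. Females that received PBS (the saline vehicle) were 3, 6, 9, 12, 14, 16 or 24 months old, with 4, 2, 3, 4, 5, 5 and 3 mice. Males that received PBS were 3, 6, 9, 12, 16, 19 or 24 months old, with 4, 4, 4, 2, 4, 5 and 4 mice, and no LPS-treated males were analysed here. Animals of different ages were different mice, and the sorted microglia of a brain, taken without the cerebellum, were measured together. In such bulk samples fewer cells of a type and less RNA per cell cannot be told apart.

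A ribosome is built from a small subunit, which reads the mRNA, and a large subunit, which joins amino acids. Most of its proteins are needed in equal number, and in mammals nearly all of them are encoded by a single working gene. Their mRNAs are among the most abundant in a cell and start with a C followed by a run of pyrimidines, the 5′ terminal oligopyrimidine (TOP) motif. This motif places their translation under the mTOR kinase, which acts in part through the RNA-binding protein Larp1. In microglia, as in other immune cells, growth signals and activation are known to change the demand for ribosomes.

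The start regions of the members were looked up in RefSeq promoter windows of build GRCm38.p6, where 60 of the 80 members matched with 71 annotated starts. The windows below are of genes that carry the age comparison, of the most abundant member (Rps27) and of Rps6 (negative in females, not called). Each runs 5′ to 3′ on the strand of the gene, with 10 bases before and 20 bases from the annotated start on, and capitals mark a C at the start with the C and T bases that follow it, where that run holds at least 4 of them after the C.
Rpsa, chr9:120127756-120127785, plus strand: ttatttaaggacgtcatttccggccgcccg
Rps21, chr2:180257369-180257398, plus strand: aggacccgccCTCCTgcccaatagtgctgc
Rpl38, chr11:114668570-114668599, plus strand: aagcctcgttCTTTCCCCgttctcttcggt
Rps18, chr17:33955646-33955675, minus strand: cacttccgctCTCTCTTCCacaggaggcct
Rps25, chr9:44407704-44407733, plus strand: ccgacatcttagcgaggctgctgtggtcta
Rplp0, chr5:115559457-115559486, plus strand: cgggtttcgaggaccgcctggttctcctat
Rps27, chr3:90213629-90213658, minus strand: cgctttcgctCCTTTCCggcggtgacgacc
Rps6, chr4:86857348-86857377, minus strand: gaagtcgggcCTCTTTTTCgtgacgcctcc

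A C at the annotated start followed by 4 or more C or T bases was present in 12 of the 71 member windows (16.9%), against 2.51% of all 32851 windows of the table. Such a run began within 10 bases of the start in 52.1% of member windows and in 30.7% of all windows. The letters TTCCGG or their reverse complement CCGGAA, the core recognised by ETS-family and GABP factors, were present anywhere in the window in 49.3% of member windows, against 14.9% of all windows. The printed windows of Rpsa, Rps25 and Rplp0 hold no such run at the annotated start, and annotated starts can differ from the starts used in microglia. A match is a description of the letters, and the expression values do not test it. Rps21 has another annotated start further downstream, which is not printed.

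The values are FPKM (fragments per kilobase of transcript, scaled to library size) that the authors adjusted for batch, stored as whole numbers apart from 297 values that belong to no member, so levels of different genes can be set side by side per length. Members ranged between 6 and 1336 over the 64 libraries, and no member had a value of 0 in any library. Rps27, a zinc-finger protein of the small subunit, had the highest mean level (872), followed by Rpl35 (640), which lies at the exit tunnel for the growing chain, and Rpl13 (474) of the large subunit. The lowest mean levels were those of Rpl22 (12.0), Rps20 (14.6) and Rps6 (19.7), and 7 members averaged under 50. The members thus spanned a wide range of deposited levels. Ribosomal protein genes have many near-identical processed pseudogenes, so a member's level is uncertain where reads were split between copies.

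The share of the summed table held by the members was taken for each library. It was lowest, at 2.26%, in replicate 1 of the LPS-treated females of 14 months and in replicate 1 of the PBS-treated females of 3 months. It was highest, at 4.68%, in replicate 1 of the PBS-treated males of 24 months and, at 4.66%, in replicate 2 of the LPS-treated females of 24 months. In PBS-treated females the mean share was 2.66% ± 0.29 at 3 months (SD, n = 4), 2.74% ± 0.019 at 6 months (n = 2), 2.53% ± 0.090 at 9 months (n = 3), 3.24% ± 0.081 at 12 months (n = 4), 3.19% ± 0.19 at 14 months (n = 5), 3.84% ± 0.19 at 16 months (n = 5) and 3.66% ± 0.30 at 24 months (n = 3). All 3 females of 24 months (3.41% or more) and all 5 of 16 months (3.54% or more) lay above the 4 females of 3 months (2.94% or less). In PBS-treated males the mean share was 3.06% ± 0.33 at 3 months, 2.68% ± 0.34 at 6 months and 2.88% ± 0.24 at 9 months (SD, n = 4 each), 3.41% ± 0.40 at 12 months (n = 2), 3.72% ± 0.42 at 16 months (n = 4), 3.11% ± 0.53 at 19 months (n = 5) and 3.70% ± 0.69 at 24 months (n = 4). The males of 24 months, with 3.18% or more, overlapped with those of 3 months, which began at 2.68%.

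**Figure D1:**
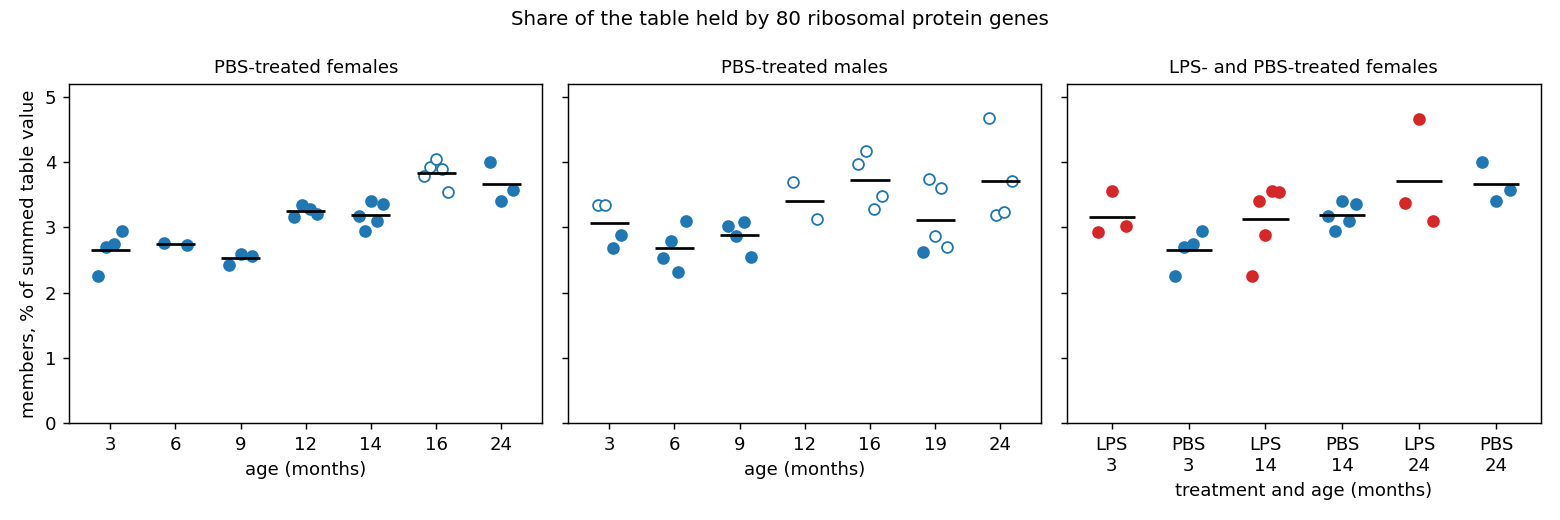
Share of the summed table held by the 80 ribosomal protein genes (vertical axis, percent) in each of the 64 libraries, by treatment, sex and age in months. Each circle is a library, red for LPS and blue for PBS, short lines are group means, and open circles are the 21 libraries with no values between 0 and 1. PBS-treated females of 16 and 24 months lie between 3.41% and 4.05%, all above the 4 females of 3 months.

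Libraries of 1 group often differed along most members at once. In males of 24 months, replicate 1 held the highest value of its group for 79 of the 80 members. Replicate 2 of the LPS-treated females of 24 months was highest for 75 members, and replicate 1 of the LPS-treated females of 14 months was lowest for 74. Among females of 3 months, replicate 1 was lowest for 70 members. The members are therefore not independent readings of a group, and counts without single libraries are given beside the comparisons of 2 groups and the F-tests where they change. The interactions were not recomputed without single libraries. Leaving out a mouse can also change how many of all genes pass, so such counts show only how far the member calls depend on it.

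The first comparison set PBS-treated females of 24 months against those of 3 months. Of the 80 members 19 rose and 0 fell, with 10 of the large and 9 of the small subunit, where a call needs both a fold above 1.5 and an adjusted p below 0.05 (limma on log2(value + 1), Benjamini-Hochberg over all 5647 genes). Over all genes, 1.56% rose by the same rule and 0.531% fell. The median log2 fold change of the members was 0.54, against -0.02 over all genes, and 78 of 80 members had a positive change. In 66 members every mouse of 24 months lay above every mouse of 3 months, a pattern shown by 13.1% of all genes.

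Rpsa, a small-subunit protein known also as a laminin receptor precursor, had the largest change. Its values were 131, 94 and 103 in females of 24 months, against 44, 57, 54 and 66 in females of 3 months. All mice of 24 months lay above all mice of 3 months, and the log2 fold change was 0.97 ± 0.23 (SE, adjusted p = 0.027, limma).

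Rps21, known in yeast to be needed for maturation of the small-subunit RNA, had values of 83, 53 and 65 in females of 24 months, against 37, 29, 41 and 43 in females of 3 months. The groups did not overlap, and the log2 fold change was 0.81 ± 0.22 (SE, adjusted p = 0.045, limma). This call was the most fragile of the named members, since leaving out any of the 7 mice took its adjusted p past 0.05.

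Rpl38, a large-subunit protein known in mouse embryos for its part in the translation of Hox mRNAs, had values of 156, 125 and 125 in females of 24 months, against 67, 67, 90 and 88 in females of 3 months. Its log2 fold change was 0.79 ± 0.19 (SE, adjusted p = 0.030, limma), again with no overlap.

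Rps18, which lies at the head of the small subunit where the subunits touch, had values of 386, 386 and 321 in females of 24 months, against 174, 208, 232 and 240 in females of 3 months. Its log2 fold change was 0.77 ± 0.13 (SE, adjusted p = 0.0029, limma), the smallest p among the members.

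Rps25, a small-subunit protein used by viral internal ribosome entry sites, had values of 501, 367 and 315 in females of 24 months, against 198, 209, 266 and 254 in females of 3 months. The groups did not overlap, although replicate 1 of the older mice stood well above the other 2, and the log2 fold change was 0.75 ± 0.17 (SE, adjusted p = 0.023, limma).

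The stalk of the large subunit is made of Rplp0 and of dimers of Rplp1 and Rplp2, and it recruits the elongation factors. Rplp0 had values of 480, 404 and 445 in females of 24 months, against 262, 294, 308 and 301 in females of 3 months, and rose by a log2 fold change of 0.60 (adjusted p = 0.010, limma). Rplp1 and Rplp2 had log2 fold changes of 0.53 and 0.48, which did not pass both thresholds.

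Members with known roles outside the ribosome were also measured. Rps19, the gene most often mutated in human Diamond-Blackfan anaemia, rose by 0.63 on the log2 scale (adjusted p = 0.026, limma). Rpl13a, which in human myeloid cells can leave the ribosome and silence inflammatory mRNAs, rose by 0.72 (adjusted p = 0.015, limma). Rpl5 and Rpl11, which form a particle with 5S RNA and bind the p53 regulator Mdm2, had log2 fold changes of 0.71 and 0.50 and were not called. Rpl5 values were 192, 158 and 144 in females of 24 months, against 82, 97, 93 and 131 in females of 3 months, so its groups did not overlap.

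The most abundant member, Rps27, had values of 1143, 1084 and 1141 in females of 24 months, against 597, 774, 858 and 925 in females of 3 months, with a log2 fold change of 0.53 (adjusted p = 0.066, limma). Rpl13 passed the adjusted p (0.015, limma) at a log2 fold change of 0.52, which is below the fold threshold. Other positive values that were not called were those of Rpl39 (0.56) and Rpl41 (0.49), both very short proteins, of Rps27a (0.48), made as a fusion with ubiquitin, and of Rpl10 (0.38), which joins the large subunit late in its assembly. Rpl22 and Rps20, both of low level, had log2 fold changes of 0.65 and 0.63 and were not called.

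The members with a negative change were Rps6, the substrate of the S6 kinases, and Rpl7l1, a paralog of Rpl7. Rps6 had values of 18, 23 and 13 in females of 24 months, against 22, 26, 28 and 19 in females of 3 months. Rpl7l1 had values of 45, 52 and 45 in females of 24 months, against 51, 58, 52 and 60 in females of 3 months. Their log2 fold changes were -0.40 and -0.22, neither was called, and the groups overlapped in both. None of the 4 paralogs in the table was called, with values of 0.50 for Rps27l, 0.32 for Rpl36al and 0.31 for Rpl22l1.

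**Figure D2:**
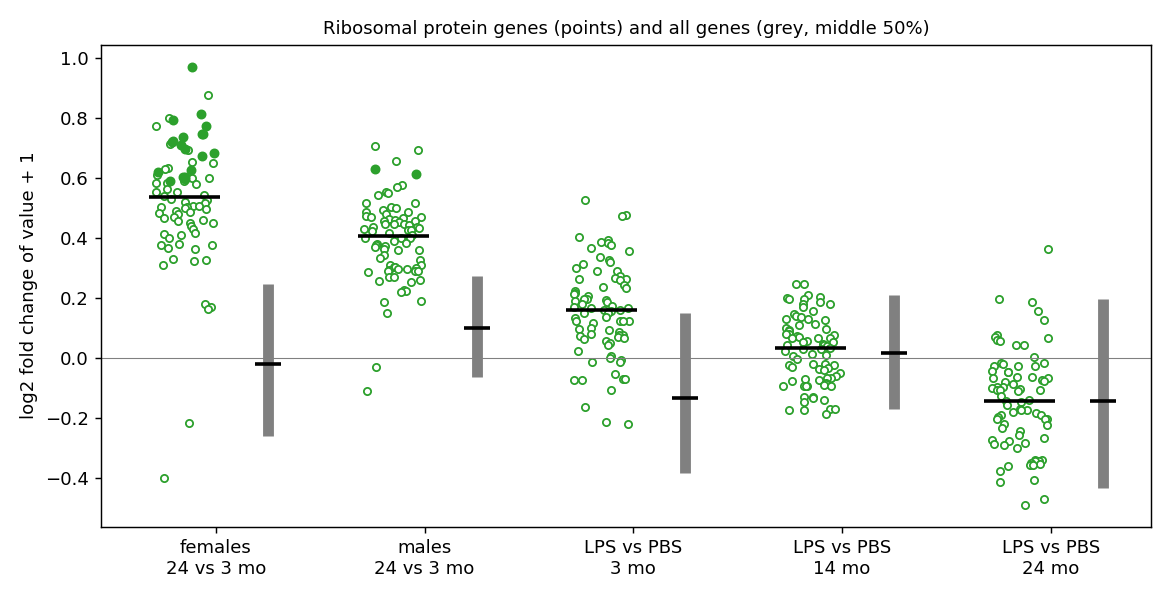
Log2 fold change on the log2(value + 1) scale (vertical axis) of each of the 80 ribosomal protein genes in the age and LPS comparisons (horizontal axis). Filled points passed the adjusted p and fold thresholds, the black line is the median of the members and the grey bar the middle 50% of all genes. The 19 called members of the female age comparison and the 2 of the male one lie above 0, and no point is filled in the LPS comparisons.

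The number of members called in females rested on few mice. It was 1 (Rps18 among the named members) without replicate 1 of 24 months, 5 without replicate 2 of 24 months, 3 without replicate 1 of 3 months and 4 without replicate 2 of 3 months. The median of the members was 0.46 at the lowest of these and 0.60 at the highest. With each library scaled to the same total, 9 members were called. Counts over all genes at these settings are not given here, so whether the fall is particular to the members cannot be read from them.

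In PBS-treated males of 24 months against those of 3 months, 2 of the 80 members rose and 0 fell, against 2.73% of all genes that rose and 0.124% that fell. Rplp0 had values of 484, 397, 369 and 419 in males of 24 months, against 324, 289, 226 and 256 in males of 3 months, with a log2 fold change of 0.61 ± 0.14 (SE, adjusted p = 0.0092, limma). The groups did not overlap. Both calls were lost, 0 of 80 remaining, under each of 3 other library scalings, without replicate 1 of 24 months, and without replicate 3 of 3 months, while the change of Rplp0 stayed positive. Without replicate 4 of 3 months 1 call remained.

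The other male members lay mostly on the positive side. The median log2 fold change was 0.41, against 0.10 over all genes, and 78 of 80 were positive. In 11 members every male of 24 months lay above every male of 3 months, against 6.16% of all genes. Rpsa had values of 145, 79, 71 and 93 in males of 24 months, against 84, 71, 45 and 40 in males of 3 months, and the groups overlapped (log2 fold change 0.69, adjusted p = 0.17, limma). Rps18 had a log2 fold change of 0.44, Rps25 of 0.26 and Rps21 of 0.36, and none of these passed. Rps6, negative in females, had a log2 fold change of 0.55 in males and was not called.

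The change between 3 and 24 months was compared directly between the sexes. The female minus male difference in log2 fold change had a median of 0.14 over the members, and 0 of 80 passed the adjusted p (limma), with 1 member in each direction at an unadjusted p under 0.05 (1.12% of all genes upward and 7.46% downward). The standard error of this difference had a median of 0.26, so differences of that size were not detectable. The members that passed the unadjusted p were Rps27l (0.62) and Rps6 (-0.95). At matched ages, females and males differed in 2 members, Rps28 and Rps29 of the small subunit, both lower in females and at 9 months only, against 1.13% of all genes lower in females at that age. These genes are named because the count was small, with their values seen. Rps29 had values of 265, 281 and 275 in females of 9 months, against 447, 402, 474 and 373 in males of 9 months. Rps28 had values of 93, 92 and 69 in females of 9 months, against 163, 137, 161 and 116 in males of 9 months. A test of whether that sex difference was itself different at other ages was not run.

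Over the 7 ages the female members did not follow a straight course. Their median log2 fold change from 3 months was -0.09 at 6 months, -0.26 at 9 months, 0.12 at 12 months, 0.09 at 14 months, 0.45 at 16 months and 0.54 at 24 months. All genes had a median between -0.16 and -0.19 at each age from 6 to 16 months, and -0.02 at 24 months. The call rule found 1 lower member at 9 months (Rps29, against 2.32% of all genes lower), 12 higher members at 16 months (against 3.01% of all genes) and 0 at 6, 12 and 14 months. Over all genes, 0.195% rose and 0.106% fell at 6 months, 1.31% rose and 7.76% fell at 12 months, and 1.2% rose and 2.11% fell at 14 months. At an unadjusted p under 0.05 alone (limma), 1 member was lower at 6 months (9.14% of all genes), 11 were higher (4.52% of all genes) and 2 lower (23.1%) at 12 months, and 5 were higher at 14 months (5.15%). At 9 months 27 members were lower by the same measure, against 18.3% of all genes, and 0 were higher. The count at 16 months was 4 without replicate 1 of 3 months, 7 without replicate 2 of 3 months and 20 without replicate 4 of 3 months. With libraries scaled by median ratios, which removed the shift of all genes, the counts were 50 higher at 16 months, 3 at 12 months and 2 at 14 months, among 286, 130 and 126 of all 5647 genes. Females of 16 months differed from those of 3 months also in whether their libraries held values between 0 and 1, so that property and the age cannot be told apart here.

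**Figure D3:**
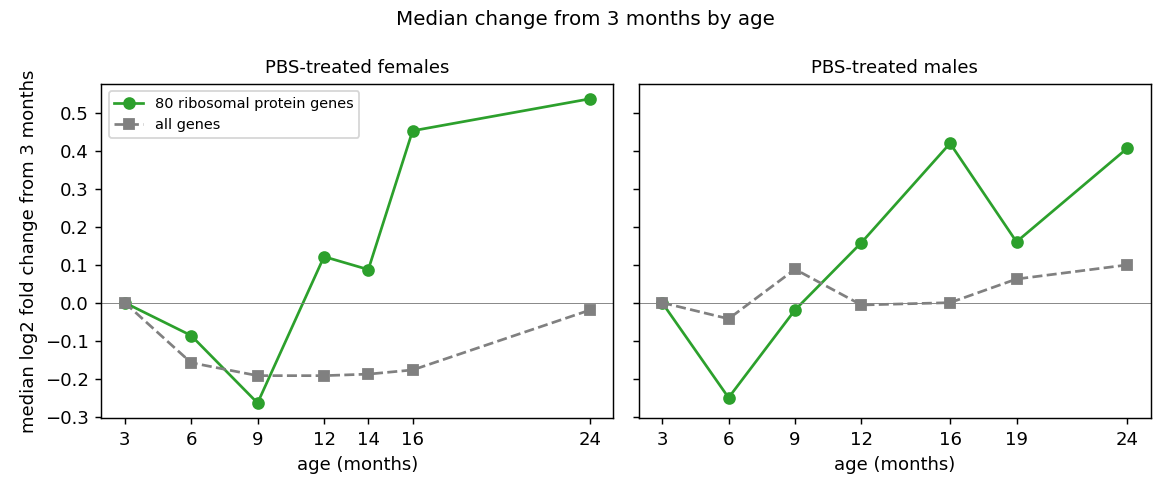
Median log2 fold change from 3 months (vertical axis) of the 80 ribosomal protein genes (green circles) and of all 5647 genes (grey squares) against age in months, for PBS-treated females (left) and males (right). The female members reach 0.45 at 16 months and 0.54 at 24 months, and the male members 0.42 at 16 months, 0.16 at 19 months and 0.41 at 24 months.

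In the F-test over the 7 ages, 33 members passed with their largest change upward and 1, Rps29, downward. Over all genes, 5.21% passed upward and 9.6% downward. Of these members 26 had their largest change at 24 months, 7 at 16 months and 1 at 9 months. Without replicate 1 of 3 months, 17 members passed upward and 5 downward. Without replicate 1 of 24 months, 20 passed upward. The downward count was 0 without replicate 2, 3 or 4 of 3 months or replicate 1 of 9 months, 4 without replicate 2 of 9 months, and 2 without replicate 2 of 6 months or replicate 3 of 12 months.

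A comparison of 16 with 9 months was added after the values by age had been seen. In females of 16 months against females of 9 months, 59 members rose and 0 fell, 32 of the large and 27 of the small subunit, against 5.47% of all genes that rose and 3.12% that fell. The median log2 fold change was 0.71, against 0.04 over all genes, and all 80 members were positive. In 69 members every mouse of 16 months lay above every mouse of 9 months, against 6.46% of all genes.

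Rpsa had values of 78, 76, 121, 106 and 111 in females of 16 months, against 31, 69 and 35 in females of 9 months (log2 fold change 1.18, adjusted p = 0.0014, limma). Rps18 had values of 315, 266, 343, 295 and 296 in females of 16 months, against 163, 167 and 166 in females of 9 months (log2 fold change 0.87, adjusted p = 0.00027, limma). The 3 libraries of 9 months lay close together for Rps18, while for Rpsa replicate 2 stood apart from the other 2. Rplp0 rose by 0.67 on the log2 scale. Leaving out each mouse in turn gave between 44 and 61 called members.

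All 5 female libraries of 16 months, and none of 9 or 3 months, lacked values between 0 and 1, a mark of unknown origin. The mark and the age cannot be told apart in this step either. No library of females of 24 months lacked such values, and the same held at 3 months. With the females of 16 months left out of the fit, 14 members were called higher at 24 against 3 months (81 of all genes), and in the F-test over the other ages 24 passed upward and 1 downward (202 and 339 of all genes). Between 24 and 16 months no female member was called in either direction (limma, 3.22% of all genes higher and 0.726% lower), and the median was 0.08. At an unadjusted p under 0.05 alone 2 members were higher, against 18.6% of all genes, and 0 were lower.

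In males the median log2 fold change of the members from 3 months was -0.25 at 6 months, -0.02 at 9 months, 0.16 at 12 months, 0.42 at 16 months, 0.16 at 19 months and 0.41 at 24 months. All genes had medians between -0.04 and 0.10 at these ages. In males of 16 months 3 members rose relative to males of 3 months (Rplp0, Rps19 and Rpl14), and 0 fell, against 4.52% of all genes that rose and 1.77% that fell. The count at 16 months was 0 without replicate 3 of 3 months, 7 without replicate 3 of 16 months, and 1 without replicate 4 of 3 months or replicate 1, 2 or 4 of 16 months. At 6, 9, 12 and 19 months 0 male members were called (limma), with 0.0354% of all genes lower and 0 higher at 9 months, 0 in either direction at 6 months, 0.797% of all genes higher and 0.106% lower at 12 months and 2.74% higher and 0.301% lower at 19 months. At an unadjusted p under 0.05 alone 10 members were lower at 6 months (5.22% of all genes), 0 passed at 9 months (9.33% of all genes higher and 2.51% lower), 2 were higher at 12 months (6.39%) and 7 at 19 months (9.76%). Relative to males of 9 months, 9 members rose in males of 16 months and 0 fell, against 5.49% of all genes that rose and 7.54% that fell, with Rplp0 and Rps18 each at a log2 fold change of 0.72 and a median of 0.44 over the members. That count was 1 without replicate 4 of 9 months, 16 without replicate 3 of 9 months or replicate 3 of 16 months, and 4 without replicate 1 or replicate 2 of 16 months. Without replicate 2 of 9 months it was 5. All 4 males of 9 months, and none of the 4 of 16 months, held values between 0 and 1, so here too the mark and the age cannot be told apart.

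In the F-test over the 7 male ages 5 members passed, all upward, among them Rplp0, Rps19, Rpl14 and Rpl36a. Over all genes, 5.72% passed upward and 2.64% downward. Male libraries were mixed in the mark of values between 0 and 1, present in replicates 3 and 4 of 3 months and absent in replicates 1 and 2 and in all libraries of 12, 16 and 24 months. Restricted to libraries that lacked such values, 0 members were called at 24 against 3 months, the median was 0.24, and the median of all genes was 0.09. Without replicate 3 of 3 months 0 members passed the F-test upward. The upward count was 3 without replicate 4 of 3 months or replicate 1 or 2 of 16 months. It was 10 without replicate 1 of 3 months, 11 without replicate 2 of 3 months or replicate 3 of 16 months, and 12 without replicate 2 of 24 months. The downward count was 5 without replicate 4 of 6 months and 0 to 2 without any other library.

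**Figure D4:**
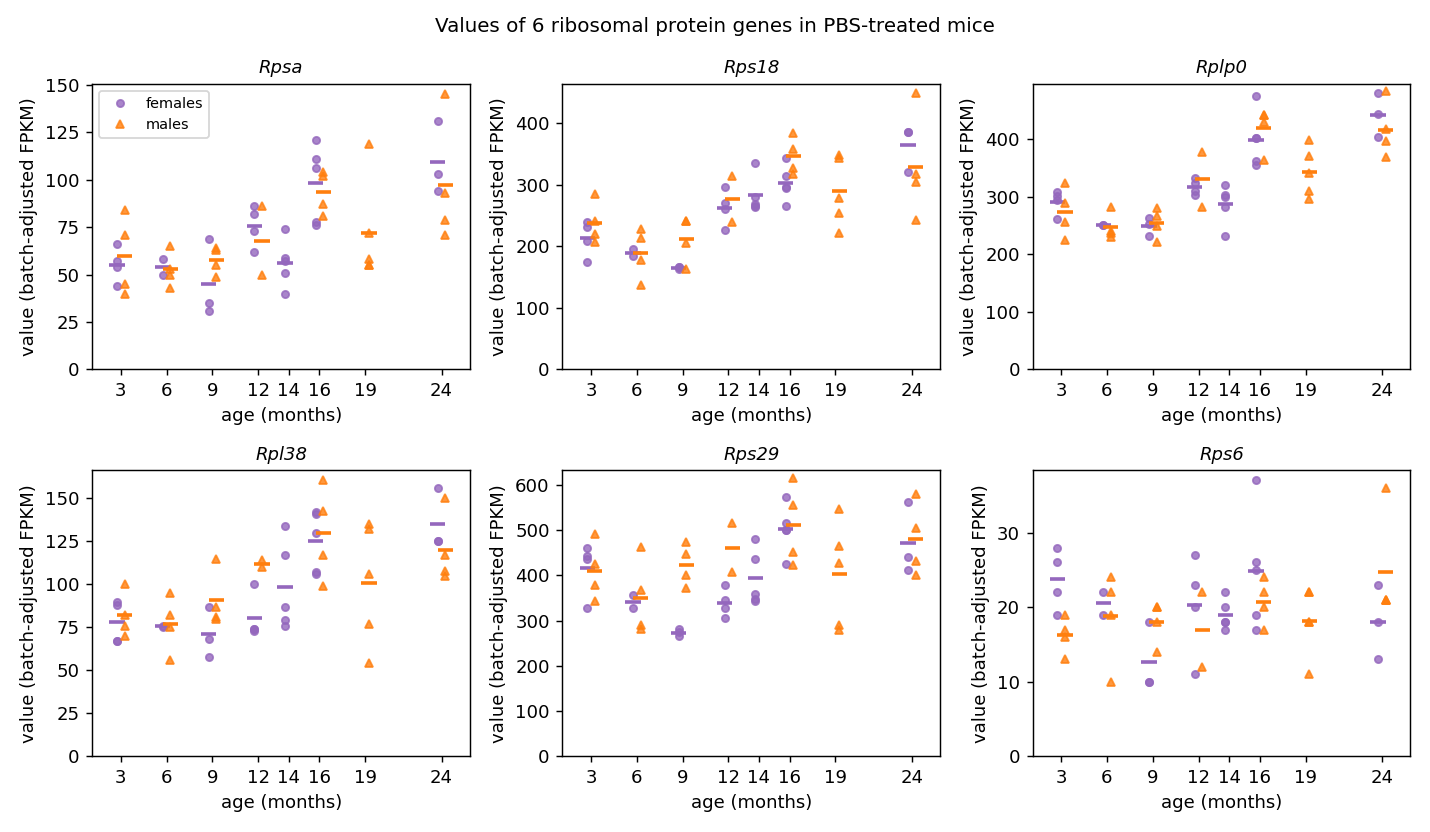
Values (batch-adjusted FPKM, vertical axes) of 6 members, against age in months, for PBS-treated mice. Each point is a mouse (circles, females; triangles, males) and short lines are group means. Rps18 lies between 321 and 386 in females of 24 months and between 174 and 240 in females of 3 months.

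LPS was compared with PBS in females of 3, 14 and 24 months. By the adjusted p and fold rule 0 of 80 members were called in either direction at any of these ages (limma). At an unadjusted p under 0.05 alone, 4 members were higher at 3 months (10.6% of all genes), 1 was higher at 14 months (10% of all genes) and 4 were lower at 24 months (17.7% of all genes). Over all genes, 6.16% rose and 5.08% fell with LPS at 3 months, 1.4% rose and 0.407% fell at 14 months, and 4.27% rose and 5.44% fell at 24 months. The standard error of a member's log2 fold change had a median of 0.21 at 3 months, 0.17 at 14 months and 0.22 at 24 months, so changes of that size were not detectable.

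At 3 months the median log2 fold change of the members with LPS was 0.16, against -0.14 over all genes, and 67 of 80 were positive. In 7 members every LPS-treated mouse lay above every PBS-treated mouse, against 12.2% of all genes. Rpsa had values of 63, 79 and 67 in LPS-treated females, against 44, 57, 54 and 66 in PBS-treated females, which overlapped (log2 fold change 0.34 ± 0.24, SE). Rps25 had a log2 fold change of 0.36, Rps18 of 0.17 and Rplp0 of -0.01, whose sign turned under other scalings. The mean share of the table was 3.16% ± 0.34 in LPS-treated females (SD, n = 3) and 2.66% ± 0.29 in PBS-treated females (SD, n = 4). With the libraries rescaled, 1 member was called higher under each of 3 scalings. Without replicate 2 of the LPS-treated females the median of the members was 0.07, against -0.12 over all genes.

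At 14 months the median of the members was 0.03, against 0.02 over all genes, and 46 of 80 were positive. Rpsa had values of 47, 65, 58, 66 and 73 in LPS-treated females, against 59, 40, 74, 51 and 57 in PBS-treated females, and the ranges overlapped (log2 fold change 0.15). The share of the table was 3.13% ± 0.56 in LPS-treated and 3.19% ± 0.19 in PBS-treated females (SD, n = 5 each), with the lowest LPS library at 2.26%. Without that library, replicate 1, the median of the members was 0.16, against 0.04 over all genes, and 0 members were called.

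At 24 months the median of the members was -0.14, against -0.15 over all genes, and 13 of 80 were positive. Only 1 member lay wholly above and 3 wholly below the PBS-treated mice, against 9.28% and 17.2% of all genes. Rplp0 had values of 281, 483 and 267 in LPS-treated females, against 480, 404 and 445 in PBS-treated females (log2 fold change -0.42 ± 0.20, SE, adjusted p = 0.17, limma). Rpsa had values of 67, 147 and 58 in LPS-treated females, against 131, 94 and 103 in PBS-treated females (log2 fold change -0.38). In both genes replicate 2 was the highest of the 6 mice and the other LPS-treated mice were the lowest. Without that library 4 members were called lower, among 241 of all 5647 genes, and the median was -0.36, against -0.13 over all genes. The share of the table was 3.71% ± 0.83 in LPS-treated and 3.66% ± 0.30 in PBS-treated females (SD, n = 3 each).

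The LPS response was compared between ages by interaction. The 14 minus 3 months difference in log2 fold change had a median of -0.15 over the members (0.11 over all genes), and the 24 minus 3 months difference a median of -0.30 (-0.04 over all genes). In both, 0 of 80 members passed the adjusted p and fold rule (limma), and over all genes 0.124% were higher and 0.177% lower in the first and 0 in the second. At an unadjusted p under 0.05, 0 members passed in the first (7.12% of all genes higher and 3.06% lower) and 6, all lower, in the second (5.88% of all genes lower). These comparisons share the mice of 3 months.

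Genes that work with the ribosome were described next, from lists that were chosen with earlier results known. Other TOP mRNAs (elongation and initiation factors, Npm1 and the like) had a median of 0.30 in females of 24 against 3 months, and 1 of 24 measured genes rose. In males of 24 against 3 months their median was 0.32 and 1 of 24 rose, Vim, an intermediate filament gene (1.16). In females of 16 against 9 months 11 of 24 rose with a median of 0.57. Among these were Vim (1.58), the small-subunit scaffold Rack1 (1.02), Fau (0.88), which encodes a small-subunit protein as a fusion, and the elongation factor Eef1a1 (0.81).

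Assembly factors build the ribosome in the nucleolus and nucleus, and 52 were measured. In females of 24 against 3 months 0 of 52 were called, with a median of 0.12. At 12 against 3 months 3 of 52 rose (Grwd1, Nhp2 and Tcof1) and 1 fell (Nop10), at 16 against 3 months 1 rose (Grwd1), and at 16 against 9 months 1 rose (Npm1). In males 0 were called at any age. With LPS at 3 months 8 of 52 rose (15.4%) and 0 fell, with a median of 0.37, while 6.16% of all genes rose and 5.08% fell. They included Gnl3 (1.19), a nucleolar GTPase, Nop58 (1.15), a core protein of RNA methylation particles, Nolc1 (0.88), a chaperone of such particles, and Utp4 (0.83) of the small-subunit precursor. Nop58 averaged 25.3 ± 4.0 in LPS-treated females (SD, n = 3) and 10.8 ± 0.50 in PBS-treated females of 3 months (SD, n = 4). With LPS at 14 months 1 of 52 rose, Nop58 (1.01). At 24 months Nop58 rose (0.89) while Rrp9 and Pes1 fell (-1.03 and -0.63), and the calls of Rrp9 and Pes1 were lost under each of 3 other scalings.

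Myc, a transcription factor known to drive ribosome production, rose with LPS at 3 months (log2 fold change 1.09, adjusted p = 0.0014, limma) and at 14 months (0.85, adjusted p = 0.012, limma). Without LPS it rose relative to 3 months in females of 9 (1.34) and 16 months (1.00) and in males of 16 (1.40) and 19 months (1.82). In both male comparisons the groups overlapped for Myc. Mxd1, of the same mTOR and S6 kinase list as Myc, rose relative to 3 months in males of 16 (1.79) and 19 months (1.18). Mxd1 also rose with LPS at 24 months (1.59) and fell in females of 24 against 16 months (-1.48). Eef2k, the kinase that inhibits the elongation factor Eef2, fell with LPS at 3 months (-0.72), a call lost under each of 3 other scalings. Of 57 translation factors 4 rose with LPS at 3 months, a share close to the 6.16% of all genes that rose. In females of 24 against 3 months 0 of 57 translation factors and 0 of 15 genes of the mTOR and S6 kinase pathway were called, with medians of 0.12 and -0.15.

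Mitochondrial ribosomal proteins had a median of 0.23 in females of 24 against 3 months and 0.06 in males, with 0 of 68 called in each. Respiratory chain and ATP synthase genes had medians of 0.38 in females and 0.16 in males, with 0 of 81 called in each. With LPS at 24 months 7 of 68 mitochondrial ribosomal proteins fell (median -0.25) and 1 of 81 respiratory chain genes fell (median -0.30). Of the cytosolic ribosomal proteins 0 of 80 fell, and of all genes 5.44%. Without replicate 2 of the LPS-treated females 4 cytosolic ribosomal proteins were called lower, with a median of -0.36. The other lists were not recounted without that mouse. The difference between these lists was not tested.

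Markers of other cells moved with age and treatment beside these results. All 15 listed microglia markers were measured, and their summed value was 46482 to 63901 in females of 24 months, against 68848 to 77150 in females of 3 months. In males it was 43600 to 62037 at 24 months, against 57613 to 68241 at 3 months. Of 17 T and NK cell markers 4 were measured, Cd3g, Nkg7, Ccl5 and Ms4a4b, and all 4 rose in both sexes at 24 against 3 months. Their summed value was 249 to 376 in females of 24 months, against 48 to 57 in females of 3 months. In males it was 205 to 507 at 24 months and 42 to 277 at 19 months, against 48 to 78 at 3 months. In females of 16 months it was 116 to 331, against 31.3 to 100 in females of 9 months. Neutrophil markers, 14 of 15 measured, summed to 3278 to 8624 in females of 24 months, against 7074 to 18706 in females of 3 months, with 2 lower. In males they summed to 5752 to 10707 at 24 months, against 2870 to 4762 at 3 months, with 8 higher. With LPS at 3 months they summed to 2221 to 3871, against 7074 to 18706 with PBS, with 9 lower. In males of 16 months they summed to 9421 to 32498, against 1394 to 1943 at 9 months, with 12 higher, and against 2870 to 4762 at 3 months, with 11 higher. In females of 16 months they summed to 2723 to 15755, against 508 to 5739 at 9 months, with 5 higher. Monocyte and macrophage markers, 11 of 12 measured, summed to 3854 to 5278 in males of 24 months, against 2083 to 2911 at 3 months, with 5 higher. In females they summed to 4401 to 6784 at 24 months, against 3023 to 5040 at 3 months, with 0 called. In females of 16 months they summed to 2720 to 7148, against 1714 to 3307 at 9 months, with 3 higher. In males of 16 months they summed to 4431 to 7267, against 1859 to 2304 at 9 months, with 6 higher and 2 lower. Of 8 B and plasma cell markers 2 were measured, Jchain and Cd79b. Jchain, a plasma cell gene, rose in females of 24 against 3 months (log2 fold change 3.47), where the groups overlapped, and of 16 against 9 months (4.25). In males of 16 against 3 months Jchain rose (3.71) while Cd79b fell (-0.965). The same held in males of 16 against 9 months (3.05 and -0.995). With LPS at 3 months Ccl5 (log2 fold change 3.11) and Ms4a4b (1.19) rose, and at 14 months Nkg7 fell (-1.18). The paper lists Ccl5 among genes high in microglia clusters after LPS, so under LPS it does not mark T and NK cells alone. With LPS at 24 months 4 neutrophil markers were higher and 2 T and NK cell markers lower than with PBS. The part of these cells in the ribosomal protein values was not tested.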

How the data were processed

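RNA of sorted microglia was reverse transcribed with oligo-dT priming and template switching. Per the labels and methods, reads were filtered with SOAPnuke, aligned to mm10 with HISAT2 2.0.4 and Bowtie2 2.2.5 and quantified with RSEM 1.2.12. The deposited values are a score: FPKM that the authors adjusted for batch with ComBat_seq, whole numbers apart from 297 values, with genes averaging under 10 removed. The batches are not given in the sources used here. Such values are not counts, so the count test of the study was replaced by limma 3.58.1 in R 4.3.3 on log2(value + 1) with a mean trend, fitted over the groups of a sex or of the LPS experiment, with Benjamini-Hochberg adjustment over all 5647 genes. A gene was called at adjusted p under 0.05 and fold over 1.5, and in the F-test over 7 ages with that fold at 1 age or more. Fold changes on this scale understate low genes. The pipeline was tested on simulated data.

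The summed value per library was 408457 to 554459, and 21 of 64 libraries held no values between 0 and 1. Read depth is unknown, so no counting interval is given. Members, lists and tests were chosen with earlier results of these data known. Named members were the up to 5 non-overlapping called members of largest change per comparison, members of known role, and the 3 highest and 3 lowest in level. Of other lists up to 4 called genes of largest change were named. Alternatives were 3 other scalings, other pseudocounts and filters, other thresholds, other fits, a replicate block and leaving out each library. The 16-month comparisons and the fits without 16-month females were added after seeing the data. P-values set a difference between groups against the spread between mice. That spread was pooled over the groups of a fit and drawn towards a trend over genes. Some genes that these rules name are not reported here.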

Additional observations from a re-analysis of the deposited data

Results flagged for a closer look

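Among the share of the table and the values of 6 members named by their changes, 41 groups of 4 or 5 mice were examined for a mouse that stood apart, by the gap to its nearest neighbour as a part of the range. Chance alone marks about 1 in 20 such groups. Only Rps18 in PBS-treated females of 14 months stood apart, where replicate 3 had 336 and the others 264, 265, 269 and 281. No member had an interaction between age and LPS, or between age and sex, that passed the adjusted p (0 in limma).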

How the results depend on the processing

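Of 1994 recomputed fold changes of named genes, 1833 kept direction and side of the threshold, 115 lost the call, 18 gained it and 28 changed sign, the causes not being tested. Counts of members in this section stand without the count over all genes at the same setting. A setting also changes how many other genes pass, so these counts do not compare members with all genes. The medians of the members less those of all genes were 0.55 to 0.56 in females of 24 against 3 months and 0.30 to 0.31 in males under all 4 scalings. A scaling divides a whole library by a single factor and so shifts all genes nearly alike. This difference could therefore hardly change, and its steadiness is no test of the result. In females of 24 against 3 months, 9 members were higher at the same total, 10 at the same total of other genes, 32 at unadjusted p with fold, 30 with only the groups compared, and 1 to 16 with 1 mouse left out. In males this count was 0 under median-ratio scaling, the same total and the same total of other genes, 5 at unadjusted p with fold, 0 with only libraries lacking values between 0 and 1, and 0 to 3 with 1 mouse left out. With LPS at 3 months 1 member was higher under each of the 3 scalings. With LPS at 24 months 0 to 4 were lower with 1 mouse left out.

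Across female ages, members with the largest change higher numbered 55 under median-ratio scaling, 65 by adjusted p alone and 17 to 41 with 1 mouse left out. Those lower numbered 0 under the 3 scalings, 4 by adjusted p alone, 2 at unadjusted p with fold and 0 to 5 with 1 mouse left out. Across male ages, higher members numbered 3 under median-ratio scaling, 0 at both totals and with only libraries lacking values between 0 and 1, 22 by adjusted p alone, 9 at unadjusted p with fold and 0 to 12 with 1 mouse left out. Lower ones numbered 1 at a mean of at least 50, 1 by adjusted p alone, 3 at unadjusted p with fold and 0 to 5 with 1 mouse left out.

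Of the added comparisons, females of 16 against 3 months gave 50 under median-ratio scaling, 32 at the same total, 36 at the same total of other genes and 4 to 20 with 1 mouse left out. Females of 16 against 9 months gave 44 to 61 with 1 mouse left out. Males of 16 against 9 months gave 26, 3 and 4 under these scalings and 1 to 16 with 1 mouse left out. Males of 16 against 3 months gave 0 at both totals, 0 with only libraries lacking values between 0 and 1, and 0 to 7 with 1 mouse left out.

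Sign changes were small in size. With LPS at 3 months Rplp0 was 0.092 under median-ratio scaling, 0.085 at the same total, 0.093 at the same total of other genes, 0.029 with the replicate block and -0.096 to 0.069 with 1 mouse left out. With LPS at 14 months Rpl38 was -0.017, -0.041 and -0.042 under the 3 scalings, and with 1 mouse left out Rpl38 was -0.070 to 0.16, Rps18 -0.18 to 0.0014, Rps21 -0.18 to 0.017 and Rps25 -0.017 to 0.19. With LPS at 24 months Rps21 was -0.53 to 0.058. In males of 24 against 3 months Rplp1 was -0.081 with only libraries lacking values between 0 and 1, and with 1 mouse left out Rplp1 was -0.0092 to 0.34, Rpl7l1 -0.078 to 0.023 and Rps27l -0.29 to 0.028. In males of 16 against 3 months Rps25 was -0.076 with only such libraries and -0.043 to 0.28 with 1 mouse left out.

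Replicate numbers were shared between groups. Correlations between residuals of same-numbered mice had medians of 4.3e-05 in females, -0.0044 in males and 0.014 in the LPS experiment. The numbers are those of the sample titles, which in some groups differ from the numbers of the deposited columns. Whether same-numbered mice shared a preparation or a batch was not tested. With the replicate block, 17 members were higher in females of 24 against 3 months, 2 in males and 0 with LPS at each age. The block gave 32 higher and 1 lower across female ages and 5 and 0 across male ages. Unknown depth leaves the precision of low members, such as Rpl22 and Rps6, unstated.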
